A study of Mus musculus with 8 samples.

Results

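Cell-surface trypsin-like proteases of epithelium and the Kazal-type and Kunitz-type inhibitors around them were followed across 8 RNA sequencing libraries. The set holds 8 of the 22322 genes in the deposited table: the inhibitors Spink12, Spint1 and Spint2, the membrane proteases St14, Prss8, Tmprss2 and Hpn, and the secreted kallikrein Klk1. Spink12 was chosen for its large fall in Ad-Cre, so its values are a description and carry no test. The other 7 were chosen by family and by their place in epithelium. All were chosen with results of these libraries known.

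The libraries came from 8 samples labelled as primary renal fibroblasts of mouse, 4 given adenovirus for Cre recombinase (Ad-Cre) and 4 given adenovirus for GFP (Ad-GFP). The labels give the Ad-Cre cells as a suv39h1 knockdown and the Ad-GFP cells as WT. TGF-β was given to all 8 for 48 hours at 5 ng/ml, so there is no unstimulated state to set them against, and both groups carried a virus. The sources used here do not give the allele the recombinase acted on, the age or strain of the mice, or whether replicates were separate cultures or animals. The p-values therefore measure the spread between samples only, and that spread may be technical.

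Membrane serine proteases sit on the surface of epithelial cells and cut other surface proteins. Matriptase, encoded by St14, and prostasin, encoded by Prss8, activate each other, and the Kunitz inhibitors HAI-1 (Spint1) and HAI-2 (Spint2) hold both in check. In kidney epithelium, prostasin is known for raising the activity of the sodium channel ENaC, hepsin (Hpn) for releasing uromodulin, and tissue kallikrein (Klk1) for cutting kinins out of kininogen.

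Library totals ran from 18006938 to 23940043 counts in Ad-Cre and from 15879244 to 17930632 in Ad-GFP, so the Ad-Cre libraries were all the deeper ones. Levels are given as CPM, counts scaled to the library total with TMM factors. Suv39h1 itself measured 25.3, 22.8, 21.6 and 22.6 CPM across Ad-Cre replicates 1 to 4, against 29.0, 27.8, 29.3 and 29.6 CPM across Ad-GFP replicates 1 to 4. The groups did not overlap. Suv39h1 fell to 79.6% of Ad-GFP, with bounds of 73.5% and 86.2% at the 95% level and an edgeR adjusted p of 3.293e-05. Its exons overlap those of Gm14820 on the other strand over 767 of 5270 bases. Markers of epithelium as well as of fibroblasts were read in both groups. In the summed levels that follow, the most abundant genes weigh most. General epithelial markers (19 genes) summed to 6431 to 6487 CPM in Ad-Cre and 6778 to 7006 CPM in Ad-GFP, and 10 fibroblast markers summed to 760.2 to 849.3 CPM in Ad-Cre and 1319 to 1371 CPM in Ad-GFP. Of these 10, Acta2 was at 422.1 ± 18.9 CPM in Ad-Cre and 796.3 ± 12.8 CPM in Ad-GFP, and Col1a1 at 131.4 ± 10.0 CPM in Ad-Cre and 206.6 ± 11.1 CPM in Ad-GFP. Col1a2 was at 129.6 ± 7.1 CPM in Ad-Cre and 193.9 ± 10.9 CPM in Ad-GFP, and Col3a1 at 43.2 ± 5.4 CPM in Ad-Cre and 54.4 ± 0.48 CPM in Ad-GFP. Pdgfra and Lum, chosen after their values were seen, were less abundant than these genes in both groups. Pdgfra was at 4.24 ± 0.50 CPM in Ad-Cre and 5.14 ± 0.46 CPM in Ad-GFP (SD, n = 4 each), and was not called (edgeR adjusted p = 0.0941). Lum had only 26 counts over the Ad-Cre libraries and 12 over the Ad-GFP libraries, and was not tested. Of the 10 fibroblast markers 9 were tested, 6 fell and 3 were not called, beside 20.5% of all genes tested called lower. In such bulk samples, fewer cells of a type and less RNA per cell cannot be told apart, and which cells the protease and inhibitor transcripts came from was not determined.

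Of the 7 members with enough counts to be tested, 6 remain once Spink12 is left aside. Of these 6, 5 rose in Ad-Cre and 0 fell, at an adjusted p under 0.05 over all 13337 genes tested, where 19.8% of genes were called higher, 20.5% lower and 40.3% in either direction. The Ad-Cre and Ad-GFP libraries did not overlap in 5 of the 6, the same 5. Of all genes tested, 35.4% did not overlap, and 17.2% did not overlap with Ad-Cre higher. The members were selected with these results in view, so nothing is read from these counts. The rises were small, from 108.2% of the Ad-GFP level for Spint1 to 128.2% for Tmprss2. The sixth, Spint2, stayed within its spread, and Klk1 had no counts at all.

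**Figure D1:**
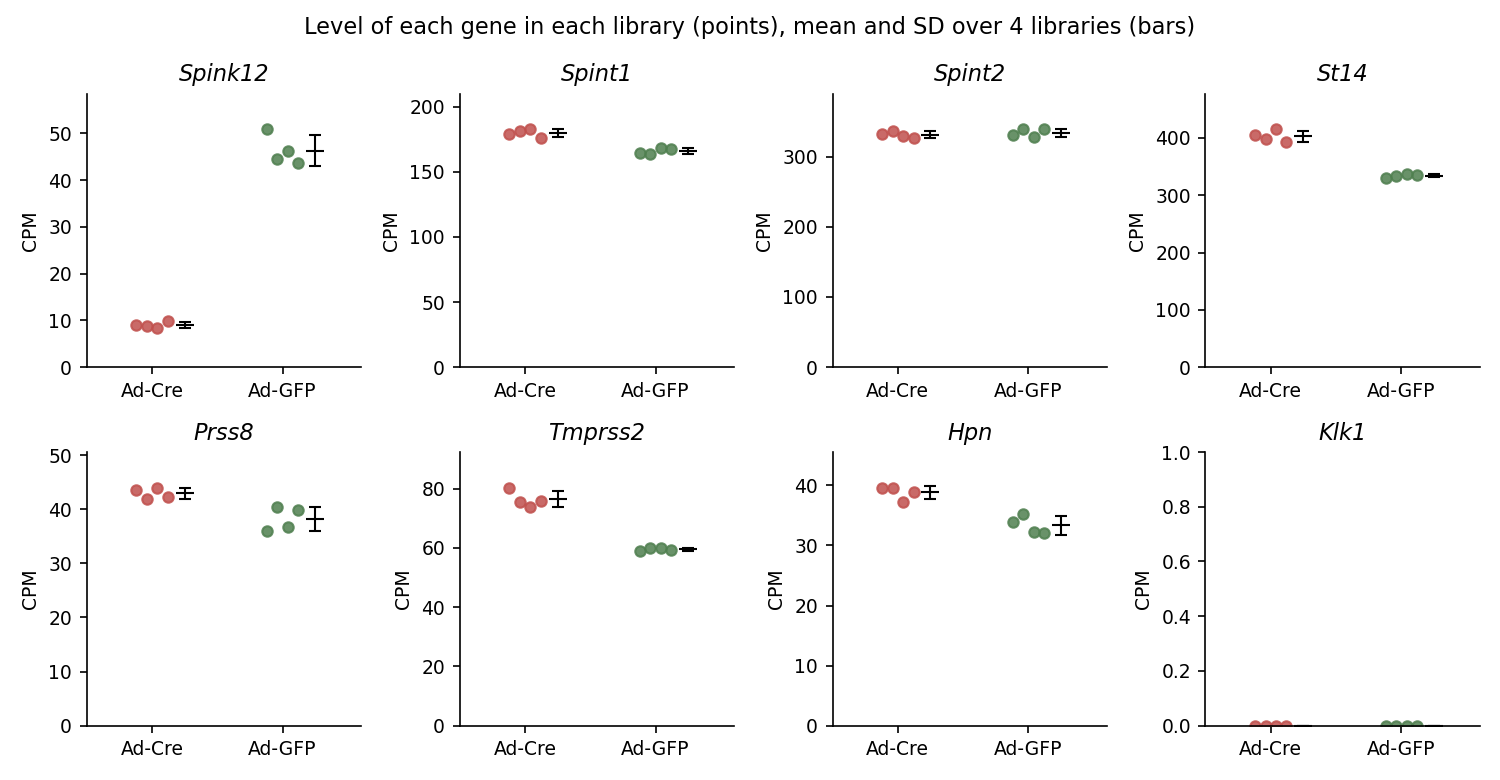
Each panel plots CPM on a linear axis from 0 for Ad-Cre (left) and Ad-GFP (right); points are libraries and bars the mean and SD of 4 libraries. Spink12 sits between 8.31 and 9.83 CPM in Ad-Cre and between 43.6 and 50.9 CPM in Ad-GFP, St14, Tmprss2, Hpn, Prss8 and Spint1 sit slightly higher in Ad-Cre, Spint2 overlaps, and Klk1 is at 0 in every library.

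Spink12 (ENSMUSG00000061144), a Kazal-type inhibitor, lies on the plus strand of chromosome 18 at 44104407 to 44108543 (GRCm38, GENCODE M21). It had 160, 209, 173 and 217 counts in Ad-Cre replicates 1 to 4, against 888, 805, 783 and 697 counts in Ad-GFP replicates 1 to 4. Scaled, these are 8.95, 8.79, 8.31 and 9.83 CPM in Ad-Cre and 50.9, 44.5, 46.3 and 43.6 CPM in Ad-GFP. The highest Ad-Cre library was far below the lowest Ad-GFP library. The fitted Ad-Cre level was 19.4% of Ad-GFP, or -2.37 ± 0.065 as a fitted log2 difference (SE), the 19th lowest of the 13337 genes by fold.

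The neighbours of Spink12 on the chromosome were almost without counts. Mouse Kazal genes stand in a cluster there, and of the 5 genes on each side of Spink12 in the table, 7 of 10 had no count in any library. The other 3 were Spink5 with 1 count over the Ad-Cre libraries and 2 over the Ad-GFP libraries, Spink6 with 0 in Ad-Cre and 1 in Ad-GFP, and the predicted gene Gm37797 with 0 in Ad-Cre and 3 in Ad-GFP. None of the 10 could be tested, so these counts give no direction. No other transcript in GENCODE M21 shared a stretch of at least 100 bases at 95% identity with Spink12, and no annotated exon overlaps its exons.

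Of 13 further Kazal genes in the table, 6 were at 0 counts in every library and 4 had too few counts to test. Spink8 was the only other SPINK gene tested, at 11.5 ± 0.42 CPM in Ad-Cre and 12.6 ± 1.0 CPM in Ad-GFP (adjusted p = 0.198), or -0.13 ± 0.078 as a log2 difference (SE). Reck, a membrane-anchored Kazal protein known as an inhibitor of metalloproteases, rose to 139.2% of Ad-GFP, with 4.56 ± 0.43 CPM in Ad-Cre and 3.26 ± 0.53 CPM in Ad-GFP (adjusted p = 0.0099). Kazald1 was at 0.806 ± 0.21 CPM in Ad-Cre and 0.475 ± 0.26 CPM in Ad-GFP (adjusted p = 0.114). Kazald1 was called higher without Ad-GFP replicate 1 (adjusted p = 0.038). The 3 tested genes were too few to describe the family.

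The genes nearest to Spink12 in pattern were sought by the mean absolute difference of log2 CPM over 8 libraries. Each gene was centred on its Ad-GFP mean, and 10691 genes averaging 5 CPM or more were compared. The nearest was Acta1, the skeletal muscle actin, at 0.23, with 45.7 ± 3.6 CPM in Ad-Cre and 183.0 ± 9.1 CPM in Ad-GFP. Next came the inflammasome adaptor gene Pycard (0.327), the cytochrome P450 gene Cyp4b1 (0.355), the augmin subunit gene Haus8 (0.384) and Prune2 (0.406). These 4 had fitted levels of 28.8%, 30.7%, 31.3% and 32.7% of Ad-GFP, so none fell as far as Spink12. On log2(FPKM + 1), 3 of these 5 stayed among the 5 nearest. Spink12 was chosen for this pattern, so the likeness is a description. The distance takes in the difference between the groups, so it does not show that genes varied together from library to library.

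The Kunitz inhibitors Spint1 and Spint2 were both abundant, and Spint1 alone of the pair was called. Their promoters, 250 bases before to 50 bases after the start site (RefSeq, GRCm38.p6), are shown because these related genes differed, beside that of Tmprss2, the member with the largest fitted rise. Capitals mark GGGCGG (a GC box) and CACCTG (an E-box) read on either strand.
Spint1 (chr2:119237110-119237409, plus strand): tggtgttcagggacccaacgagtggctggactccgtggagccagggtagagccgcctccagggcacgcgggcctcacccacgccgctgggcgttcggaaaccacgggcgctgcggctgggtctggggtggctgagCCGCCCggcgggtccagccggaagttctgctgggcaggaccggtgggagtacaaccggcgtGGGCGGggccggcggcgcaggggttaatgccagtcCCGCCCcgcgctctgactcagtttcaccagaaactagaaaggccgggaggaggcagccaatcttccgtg
Spint2 (chr7:29281928-29282227, minus strand): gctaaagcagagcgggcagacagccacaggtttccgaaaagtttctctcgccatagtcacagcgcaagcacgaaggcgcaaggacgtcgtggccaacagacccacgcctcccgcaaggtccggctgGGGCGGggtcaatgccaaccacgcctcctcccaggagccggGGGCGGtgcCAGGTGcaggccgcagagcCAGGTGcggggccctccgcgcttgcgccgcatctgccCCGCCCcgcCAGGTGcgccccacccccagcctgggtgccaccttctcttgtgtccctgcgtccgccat
Tmprss2 (chr16:97611146-97611445, minus strand): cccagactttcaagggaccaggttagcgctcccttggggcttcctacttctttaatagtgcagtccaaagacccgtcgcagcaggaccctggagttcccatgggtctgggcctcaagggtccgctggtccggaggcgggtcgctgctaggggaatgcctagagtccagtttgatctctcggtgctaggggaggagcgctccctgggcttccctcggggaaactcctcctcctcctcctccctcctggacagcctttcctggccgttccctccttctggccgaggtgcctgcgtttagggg
Spint1 holds GGGCGG at 3 places and no CACCTG, Spint2 holds each at 3 places, and Tmprss2 holds neither, with no match overlapping another. Of 32851 promoters of this length, 35.7% hold GGGCGG and 20.2% hold CACCTG. The grainyhead motif AACNGGTT, present in 2.09% of them, and TATAAA, present in 13.6%, were in none of these 3 windows. G and C make up 69.7% of the bases in Spint1, 69.3% in Spint2 and 62.3% in Tmprss2. These letters describe the windows and say nothing of binding.

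Spint1 (ENSMUSG00000027315, chromosome 2, 119237362 to 119249527, plus strand), which encodes HAI-1, measured 179.3, 181.1, 182.8 and 175.8 CPM across Ad-Cre replicates 1 to 4, against 164.4, 163.9, 168.2 and 167.9 CPM across Ad-GFP replicates 1 to 4. Every Ad-Cre library was above every Ad-GFP library. It rose to 108.2% of Ad-GFP, with an edgeR adjusted p of 0.000666. On the log2 scale the fitted difference was 0.11 ± 0.025 (SE).

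Spint2 (ENSMUSG00000074227, chromosome 7, 29256323 to 29281912, minus strand), which encodes HAI-2, measured 332.5, 337.1, 328.9 and 326.4 CPM across Ad-Cre replicates 1 to 4, against 330.4, 339.0, 328.3 and 339.0 CPM across Ad-GFP replicates 1 to 4. The groups overlapped. Its fitted level was 99.1% of Ad-GFP with a 95% interval of 96.0% to 102.3% (edgeR adjusted p = 0.677). Missing the threshold does not show that the groups were alike.

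Other genes with Kunitz domains gave calls in both directions. Of the 12 examined, 5 were tested, 3 rose and 1 fell, beside 19.8% of all genes tested called higher and 20.5% lower. The median log2 fold change of the 5 was 0.19 against 0.0041 over all genes tested. The amyloid precursor gene App, which has Kunitz-bearing isoforms, was at 2049 ± 28.8 CPM in Ad-Cre and 1791 ± 25.6 CPM in Ad-GFP, 114.3% of Ad-GFP (adjusted p = 1.323e-09). Its relative Aplp2 was at 821.3 ± 7.1 CPM in Ad-Cre and 681.9 ± 14.4 CPM in Ad-GFP, 120.4% of Ad-GFP (adjusted p = 3.215e-11). The table gives 1 total per gene, so isoforms with and without the Kunitz domain were not told apart. The other gene that rose, Papln, chosen after its values were seen, was low and its groups overlapped. It was at 1.56 ± 0.515 CPM in Ad-Cre and 0.795 ± 0.28 CPM in Ad-GFP. Tfpi2, a secreted inhibitor of plasmin and other trypsin-like enzymes, fell to 67.3% (2.39 ± 0.25 CPM in Ad-Cre and 3.55 ± 0.53 CPM in Ad-GFP; adjusted p = 0.00629). Tfpi, the tissue factor pathway inhibitor, was at 7.52 ± 0.64 CPM in Ad-Cre and 7.50 ± 0.99 CPM in Ad-GFP (adjusted p = 0.940).

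St14 (ENSMUSG00000031995, chromosome 9, 31089402 to 31131853, minus strand), which encodes matriptase, was the protease of highest FPKM in both groups. By CPM it measured 404.8, 397.5, 415.3 and 393.2 CPM across Ad-Cre replicates 1 to 4, against 330.0, 333.6, 337.6 and 336.0 CPM across Ad-GFP replicates 1 to 4. The lowest Ad-Cre library was well above the highest Ad-GFP library. St14 rose to 120.4% of Ad-GFP, with 95% bounds of 116.7% and 124.3% and an edgeR adjusted p of 3.479e-10. On the log2 scale the fitted difference was 0.27 ± 0.022 (SE). Of the genes around it, 8 of 10 were tested, 3 rose and 1 fell. Among all genes tested, 19.8% were called higher and 20.5% lower. The gene next to it is Aplp2, which rose by the same fitted percentage. Around Spint1, Spint2, Prss8, Tmprss2, Hpn and Klk1, 7, 6, 7, 6, 3 and 1 genes were tested. Of these, 0 were called higher at each member, and 2, 2, 1, 0, 3 and 0 lower. A shared local change was not tested.

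Prss8 (ENSMUSG00000030800, chromosome 7, 127925716 to 127930104, minus strand), which encodes the lipid-anchored protease prostasin, had the smallest rise among the proteases. It measured 43.5, 42.0, 44.0 and 42.2 CPM across Ad-Cre replicates 1 to 4, against 36.0, 40.4, 36.6 and 39.8 CPM across Ad-GFP replicates 1 to 4. The groups did not overlap, though the lowest Ad-Cre library and the highest Ad-GFP library lay close together. Prss8 rose to 112.2% of Ad-GFP, with an edgeR adjusted p of 0.0057. On the log2 scale the fitted difference was 0.17 ± 0.046 (SE). Its exons overlap those of Kat8 on the other strand over 122 of 1852 bases, and the sources used here do not say if counting used strand. Kat8, chosen after its values were seen, was at 14.7 ± 0.78 CPM in Ad-Cre and 14.2 ± 0.60 CPM in Ad-GFP (adjusted p = 0.613). Pycard, named above for its small distance to Spink12 in pattern, is among the 5 nearest genes on 1 side of Prss8. It fell to 28.8%, at 2.74 ± 0.40 CPM in Ad-Cre and 9.62 ± 0.58 CPM in Ad-GFP.

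Tmprss2 (ENSMUSG00000000385, chromosome 16, 97564682 to 97611195, minus strand), a transmembrane protease known for priming viral surface proteins, had the largest fitted rise of the 6. It measured 80.3, 75.4, 73.9 and 75.9 CPM across Ad-Cre replicates 1 to 4, against 58.9, 59.9, 59.9 and 59.3 CPM across Ad-GFP replicates 1 to 4. The Ad-GFP libraries were tightly grouped and all lay below every Ad-Cre library, of which replicate 1 was the highest. Tmprss2 rose to 128.2% of Ad-GFP, with 95% bounds of 121.9% and 134.8% and an edgeR adjusted p of 7.915e-09. On the log2 scale the fitted difference was 0.36 ± 0.035 (SE).

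Hpn (ENSMUSG00000001249, chromosome 7, 31098725 to 31115290, minus strand), which encodes hepsin, measured 39.6, 39.6, 37.2 and 38.9 CPM across Ad-Cre replicates 1 to 4, against 33.9, 35.3, 32.2 and 32.0 CPM across Ad-GFP replicates 1 to 4. Every Ad-Cre library was above every Ad-GFP library. Hpn rose to 116.2% of Ad-GFP, with an edgeR adjusted p of 0.000609. On the log2 scale the fitted difference was 0.22 ± 0.047 (SE). Among the genes around Hpn, Gramd1a fell with a log2 fold change of -0.20 ± 0.039 and the FXYD family gene Fxyd5 with -0.49 ± 0.091 (SE), at edgeR adjusted p-values of 0.00014 and 0.000115.

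Klk1 (ENSMUSG00000063903, chromosome 7, 44225360 to 44229618, plus strand), the tissue kallikrein of the distal tubule, had 0 counts in all 8 libraries. A count of 0 allows up to 0.125 to 0.167 CPM in the Ad-Cre libraries and 0.167 to 0.189 CPM in the Ad-GFP libraries, taken as 3 counts of each total and covering counting error only. Klk1 shares up to 716 bases at 95% identity or more with Klk1b5, so how reads were split or dropped between these copies is uncertain, and Klk1b5 was at 0 too. Klk1 was not tested, and its Ad-Cre and Ad-GFP levels could not be compared at this depth.

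**Figure D2:**
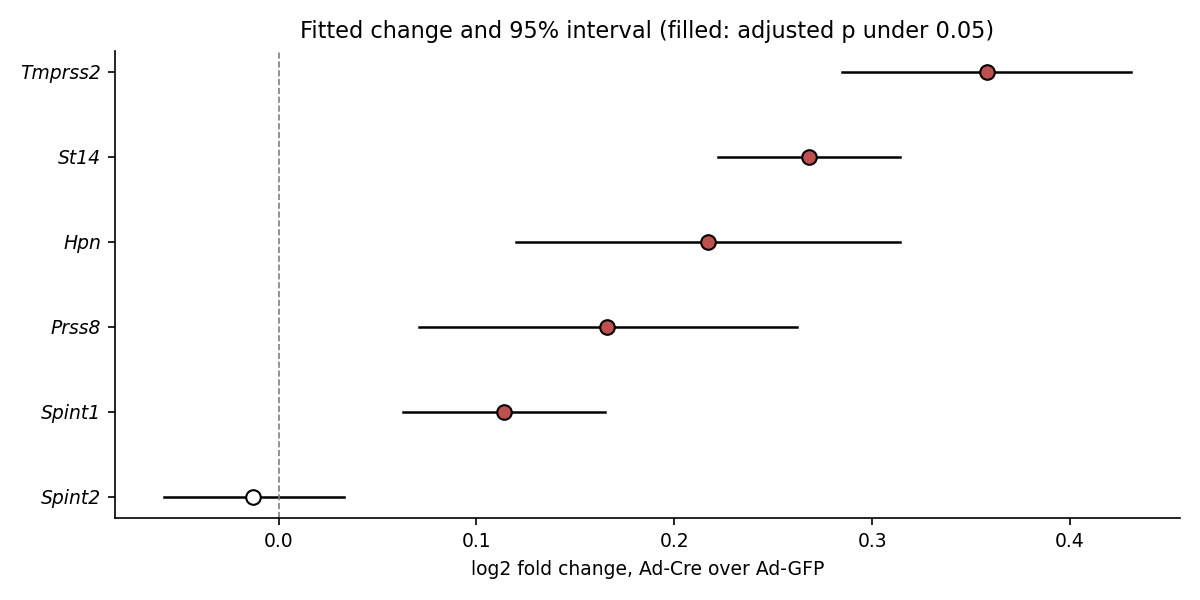
Fitted log2 fold change of Ad-Cre over Ad-GFP (x axis) with its 95% interval for the 6 tested members other than Spink12; filled circles had an adjusted p under 0.05. The intervals of Tmprss2, St14, Hpn, Prss8 and Spint1 lie above 0 and that of Spint2 spans it.

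Set by size, the rises ran from Tmprss2 through St14, Hpn and Prss8 to Spint1, and Spint2, not called, came after them. Neighbours in that order had overlapping 95% intervals except Spint1 and Spint2, with log2 intervals of 0.063 to 0.165 and -0.058 to 0.033. The interval of St14, 0.222 to 0.314, lay wholly above that of Spint1, whereas those of Hpn (0.12 to 0.314) and Prss8 (0.071 to 0.262) overlapped it. These intervals describe each gene, and the differences between genes were not tested.

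To set levels of different genes side by side, the authors' FPKM values were used, which divide fragments by gene length and library size. In Ad-Cre the order was Spint2 at 269.7 ± 3.8, St14 at 124.6 ± 2.6, Spint1 at 79.2 ± 1.5, Tmprss2 at 24.4 ± 0.93, Prss8 at 23.0 ± 0.48, Hpn at 21.5 ± 0.83 and Spink12 at 9.81 ± 0.68 FPKM (SD, n = 4). In Ad-GFP it was Spint2 at 276.0 ± 5.0, St14 at 104.4 ± 1.4, Spint1 at 74.0 ± 0.91, Spink12 at 52.2 ± 3.6, Prss8 at 20.9 ± 1.1, Tmprss2 at 19.3 ± 0.35 and Hpn at 18.7 ± 0.90 FPKM. Klk1 was listed at 0 in both. In Ad-Cre no neighbours in the order overlapped, although Tmprss2 and Prss8 were separated by little, at 23.6 to 25.7 and 22.6 to 23.6 FPKM. In Ad-GFP the ranges of Prss8, Tmprss2 and Hpn ran into one another. Spink12 was the 7th of the 8 in Ad-Cre and the 4th in Ad-GFP.

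**Figure D3:**
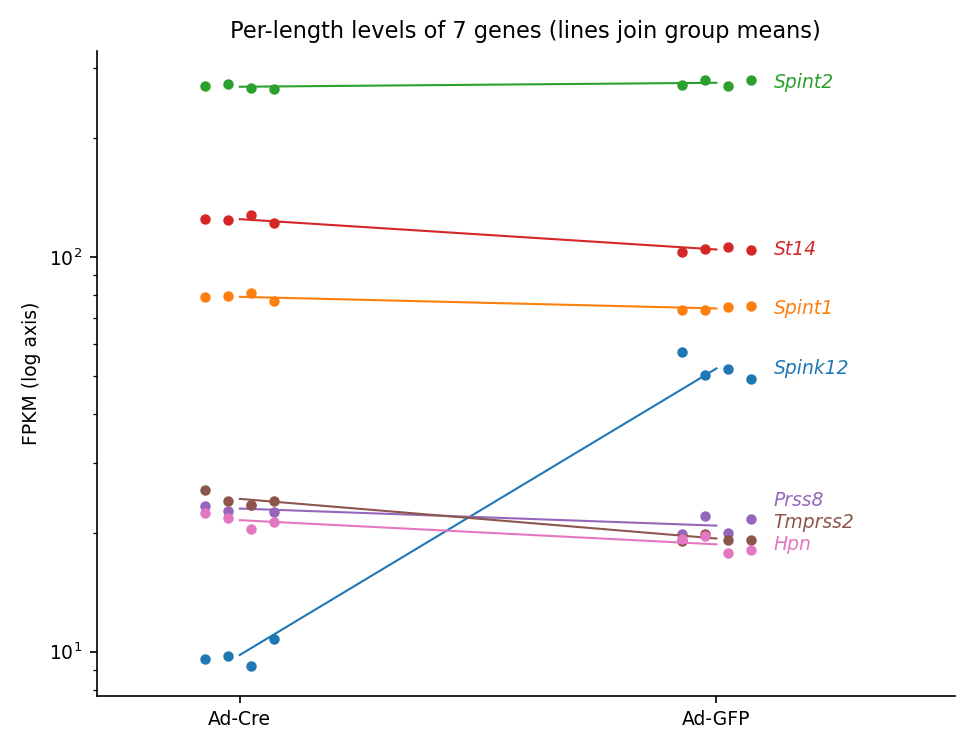
FPKM on a log axis for Ad-Cre (left) and Ad-GFP (right); points are libraries, lines join the group means, and Klk1, listed at 0, is left out. Spint2 leads with 269.7 FPKM in Ad-Cre and 276.0 FPKM in Ad-GFP, and only the Spink12 line is steep, at 9.81 FPKM in Ad-Cre against 52.2 FPKM in Ad-GFP.

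The transcript ratio of Kunitz inhibitor to protease lay lower in all Ad-Cre libraries than in any Ad-GFP library for 3 of the 4 pairs examined, given without a test. Spint1 to St14 was 0.632, 0.642, 0.634 and 0.636 by FPKM in Ad-Cre replicates 1 to 4, against 0.714, 0.698, 0.704 and 0.719 in Ad-GFP replicates 1 to 4. Spint2 to St14 was 2.17, 2.22, 2.09 and 2.18 in Ad-Cre, against 2.65, 2.68, 2.55 and 2.69 in Ad-GFP. In both pairs all Ad-Cre libraries lay below all Ad-GFP libraries. Spint2 to Prss8 averaged 11.7 ± 0.31 in Ad-Cre and 13.2 ± 0.48 in Ad-GFP (SD, n = 4), again without overlap. Spint1 to Prss8 averaged 3.44 ± 0.048 in Ad-Cre and 3.56 ± 0.20 in Ad-GFP, and the groups overlapped. The ratios recombine the member levels given above, so they are no separate evidence, and other gene pairs were not examined for overlap. A ratio shows that the genes changed unequally and says nothing of protein or of enzyme activity.

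**Figure D4:**
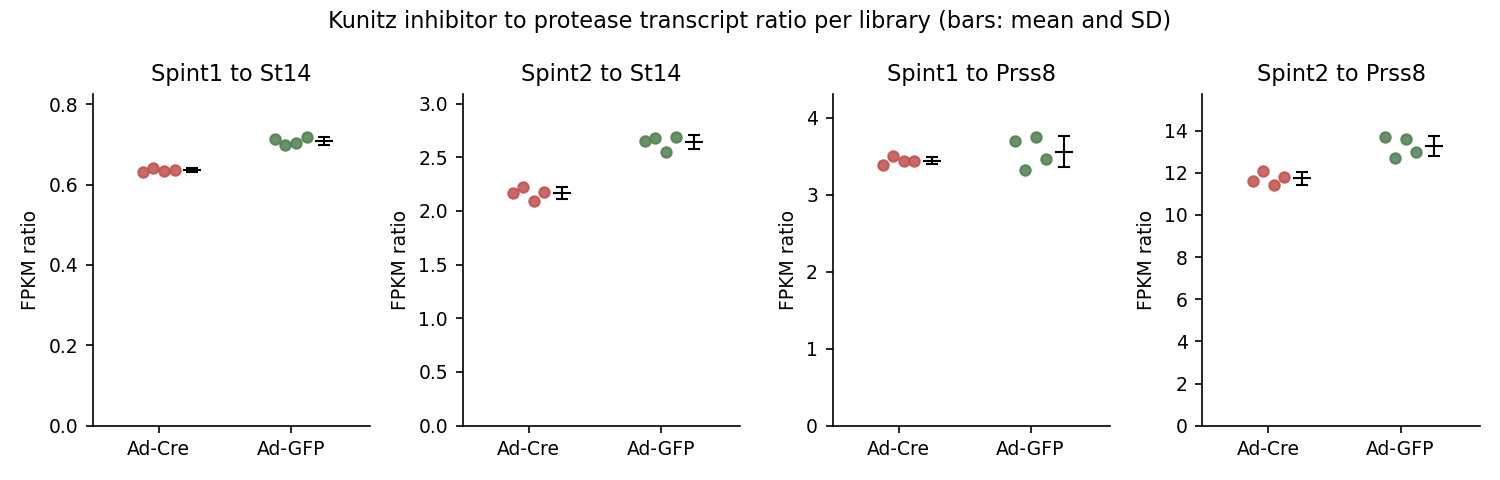
Ratio of FPKM values per library (points) with mean and SD (bars) for 4 inhibitor and protease pairs, Ad-Cre left and Ad-GFP right, axes from 0. Spint1 to St14 and both Spint2 ratios are lower in every Ad-Cre library, while Spint1 to Prss8 overlaps.

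Other proteases of these families mostly had few counts. A low gene that passes the filter through 1 group alone is more likely to lie higher in that group, though it need not differ. From here on, tested genes that did not reach the filter's cutoff of 0.557 CPM in every library of both groups are therefore left out of the list counts and medians, a step chosen after the data were seen. Over all genes tested, 19.8% were called higher and 20.5% lower. Of 16 further type II transmembrane serine protease genes 4 were tested and 1 was above the cutoff in all libraries, so the list has no count of calls. That gene, Tmprss11e, was at 8.29 ± 0.58 CPM in Ad-Cre and 9.14 ± 0.71 CPM in Ad-GFP (adjusted p = 0.252). Tmprss4 passed through Ad-GFP alone, at 0.506 ± 0.17 CPM in Ad-Cre and 1.11 ± 0.18 CPM in Ad-GFP, and is given without a test. Corin and Tmprss6 averaged under 1 CPM in both groups.

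Among 21 anchored and secreted trypsin-like proteases, 9 were tested and 5 of these were above the cutoff in all libraries. Of the 5, 2 rose and 2 fell (median log2 fold change 0.18). Prss22, an epithelial tryptase, rose to 113.5% of Ad-GFP (113.4 ± 1.9 CPM in Ad-Cre and 99.9 ± 2.6 CPM in Ad-GFP; adjusted p = 1.6e-05). Hgfac, the activator of hepatocyte growth factor, rose to 142.1% (5.39 ± 1.1 CPM in Ad-Cre and 3.82 ± 0.44 CPM in Ad-GFP; adjusted p = 0.00651), though the groups overlapped. Prss23 fell to 95.4% (228.3 ± 3.4 CPM in Ad-Cre and 239.3 ± 6.4 CPM in Ad-GFP; adjusted p = 0.0292). Leaving out Ad-Cre replicates 1 or 4 ended that call, with adjusted p-values of 0.0651 and 0.0568, as did leaving out Ad-GFP replicates 2 or 4, with 0.128 and 0.0571. Prss46 fell to 76.9% (adjusted p = 0.0147), a call that ended when Ad-Cre replicate 4 (adjusted p = 0.0736) or Ad-GFP replicate 1 (0.0558) was left out.

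Kallikrein and kinin genes had few counts. Of 30 genes 14 had no counts in any library and 12 had too few to test. Of the 4 tested, 3 were above the cutoff in all libraries, and these 3 fell (median log2 fold change -0.49), though the call for Bdkrb2 was not stable. Kng2, a kininogen gene, was at 7.98 ± 0.78 CPM in Ad-Cre and 14.1 ± 0.73 CPM in Ad-GFP (adjusted p = 1.781e-08). Its paralog Kng1 was at 0.394 ± 0.21 CPM in Ad-Cre and 1.46 ± 0.35 CPM in Ad-GFP. Kng1 passed the filter through Ad-GFP alone and is given without a test, and the split of reads between the pair is uncertain. Klk8, a kallikrein-related peptidase, fell to 71.1% (3.59 ± 0.42 CPM in Ad-Cre and 5.03 ± 0.31 CPM in Ad-GFP; adjusted p = 0.00383). Bdkrb2, the kinin receptor gene, was at 84.5% (adjusted p = 0.0461). That call was lost in 6 of the 8 fits that leave out a library, with adjusted p-values of 0.118 and 0.135 without Ad-Cre replicates 1 and 3 and of 0.0911, 0.0613, 0.0538 and 0.105 without Ad-GFP replicates 1, 2, 3 and 4.

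Proteins cut or signalled through by these proteases showed no common direction. Of 13 genes 11 were tested and 10 of these were above the cutoff in all libraries. Of the 10, 3 rose and 1 fell (median log2 fold change 0.11). Epcam, an epithelial adhesion molecule that matriptase cleaves, was at 321.8 to 329.9 CPM in Ad-Cre and 272.4 to 286.0 CPM in Ad-GFP, 118.0% of Ad-GFP (adjusted p = 4.684e-09). Met, the receptor for hepatocyte growth factor, rose to 115.6% (233.3 ± 5.7 CPM in Ad-Cre and 201.7 ± 1.0 CPM in Ad-GFP; adjusted p = 1.295e-07). Scnn1a, the ENaC α subunit gene, chosen after its values were seen, rose to 125.2% (84.1 ± 0.98 CPM in Ad-Cre and 67.2 ± 0.93 CPM in Ad-GFP, adjusted p = 7.411e-09). The other ENaC subunit genes in the list, Scnn1b and Scnn1g, were not called. Scnn1b was at 11.1 ± 0.40 CPM in Ad-Cre and 10.8 ± 1.1 CPM in Ad-GFP (adjusted p = 0.701). Scnn1g was at 13.1 ± 1.3 CPM in Ad-Cre and 11.4 ± 0.96 CPM in Ad-GFP (adjusted p = 0.0671). Pdgfc, whose growth factor is activated by proteolysis, fell to 80.4% (53.6 ± 2.4 CPM in Ad-Cre and 66.7 ± 1.1 CPM in Ad-GFP; adjusted p = 2.599e-07).

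F2rl1 and Umod gave no call. F2rl1, the protease-activated receptor PAR2, was at 196.2 ± 5.3 CPM in Ad-Cre and 198.7 ± 9.9 CPM in Ad-GFP (adjusted p = 0.651). Umod, which encodes uromodulin, was at 7.72 ± 1.3 CPM in Ad-Cre and 6.88 ± 1.2 CPM in Ad-GFP (adjusted p = 0.326).

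Serpin and WAP-domain inhibitors split as well. Of 16 genes 10 were tested and 8 of these were above the cutoff in all libraries. Of the 8, 1 rose and 2 fell (median log2 fold change -0.005). Serpine2, encoding protease nexin-1, an inhibitor of prostasin among other enzymes, was at 24.6 ± 0.88 CPM in Ad-Cre and 39.9 ± 0.45 CPM in Ad-GFP, 61.6% of Ad-GFP (adjusted p = 7.243e-12). Serpinb6a, whose close paralogs make its count uncertain, fell to 92.8% (adjusted p = 0.00244) and Serpinb9, an inhibitor of granzyme B, rose to 112.5% (adjusted p = 4.381e-05). Wfdc2 was at 170.3 ± 2.5 CPM in Ad-Cre and 169.7 ± 7.9 CPM in Ad-GFP (adjusted p = 0.929).

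**Figure D5:**
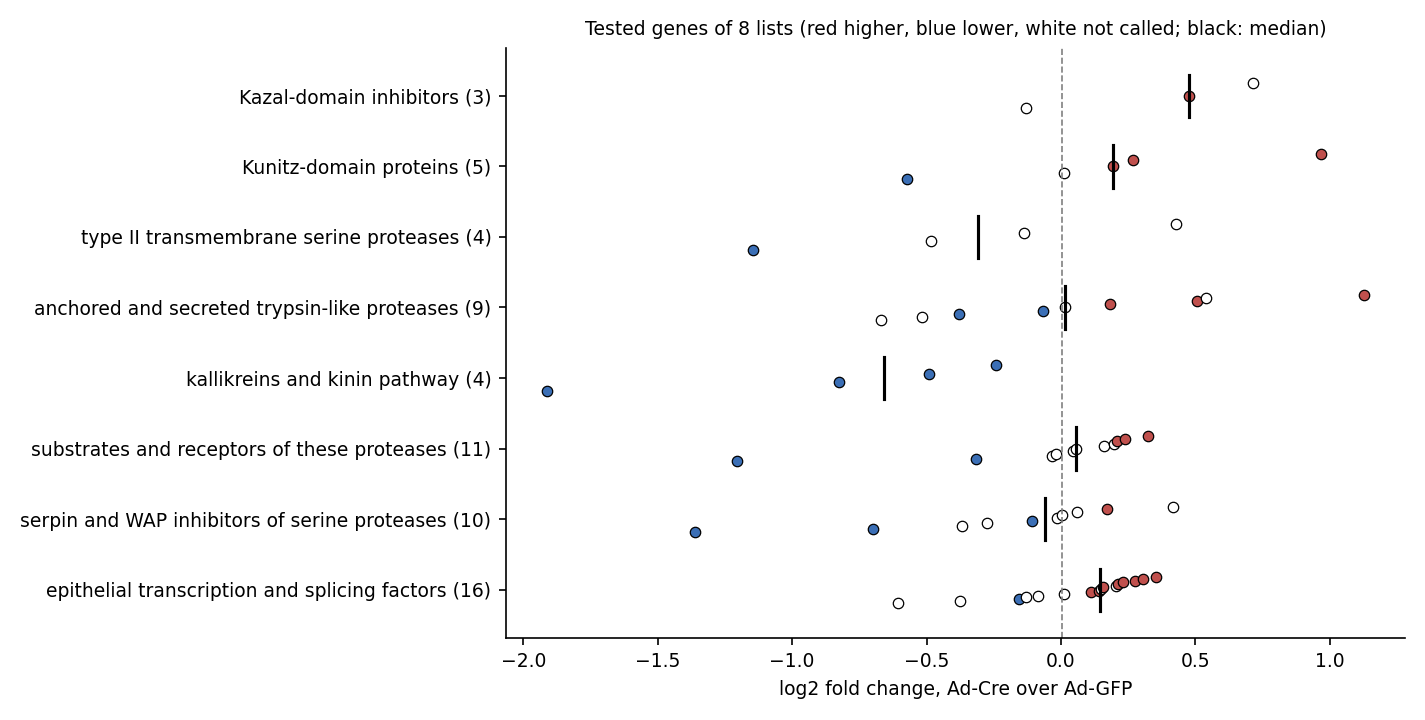
Log2 fold change of Ad-Cre over Ad-GFP (x axis) for the tested genes of 8 lists, with the number tested in brackets; red genes were called higher, blue lower, white neither, black bars are list medians and the dashed line the median of all tested genes. All tested genes are drawn, also those that passed the filter through 1 group, such as Tmprss4 and Kng1. Of the epithelial transcription and splicing factors 8 are red and 1 is blue.

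Of 17 epithelial transcription and splicing factors 16 were tested and 15 of these were above the cutoff in all libraries. Of the 15, 8 rose, 1 fell and 6 were not called (median log2 fold change 0.15, against 0.0041 over all genes tested). Pax8, a nephron transcription factor, rose to 111.6% of Ad-GFP (adjusted p = 0.00063) and Ehf to 117.3% (adjusted p = 8.649e-06). The call for Ehf was lost with limma on log2(FPKM + 1) (adjusted p = 0.0938) and on log2(FPKM + 0.1) (0.0945). Grhl2, a grainyhead factor known to drive epithelial protease and junction genes and chosen after its values were seen, rose to 115.8% (82.5 ± 2.6 CPM in Ad-Cre and 71.2 ± 1.9 CPM in Ad-GFP, adjusted p = 1.865e-05). Its paralog Grhl1 was not called, at 1.54 ± 0.042 CPM in Ad-Cre and 1.69 ± 0.59 CPM in Ad-GFP (adjusted p = 0.685). Grhl3 passed the filter through Ad-GFP alone, at 0.802 ± 0.37 CPM in Ad-Cre and 1.01 ± 0.23 CPM in Ad-GFP, and is given without a test. The splicing factor gene Esrp1 fell to 89.8% (adjusted p = 7.604e-05).

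General epithelial markers moved in both directions in the same libraries. Of 19 tested, 8 rose and 7 fell (median log2 fold change 0.05), and the summed level was lower in every Ad-Cre library. The sum weighs abundant genes most, so it does not describe the 19 as a set. Krt8 was at 1168 ± 17.9 CPM in Ad-Cre and 1504 ± 36.8 CPM in Ad-GFP. Krt18 was at 809.3 ± 12.4 CPM in Ad-Cre and 968.5 ± 20.2 CPM in Ad-GFP. The membrane trafficking gene Mal2 rose to 120.3% (adjusted p = 1.747e-10), and Epcam rose as given above. The keratin genes Krt8, Krt18 and Krt19 fell to 77.6%, 83.6% and 68.5% (adjusted p = 5.467e-14, 7.018e-11 and 5.699e-15). The claudin gene Cldn4, also among the 7, fell to 96.4% (adjusted p = 0.0465). Its call was lost without Ad-Cre replicates 2 or 4, with adjusted p-values of 0.127 and 0.115, and without Ad-GFP replicates 2, 3 or 4, with 0.081, 0.0992 and 0.160. Cdh1, the E-cadherin gene, was at 677.0 ± 7.0 CPM in Ad-Cre and 700.2 ± 17.1 CPM in Ad-GFP (adjusted p = 0.0606). It was called lower in 8 of the 19 alternative fits. Of these, 2 left out Ad-GFP replicates 1 or 4, with adjusted p-values of 0.0262 and 0.0422. The others were edgeR with upper-quartile factors (0.00832), library totals only (0.008455) or a 5 CPM filter (0.0132), and 3 limma fits. Those were limma-voom (0.0360), log2(FPKM + 1) (0.0330) and log2(FPKM + 0.1) (0.0333). The part of cell composition in the rises of St14, Tmprss2, Hpn, Prss8 and Spint1 and in the fall of Spink12 was not tested.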

How the data were processed

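RNA from 4 Ad-Cre and 4 Ad-GFP samples was sequenced. The deposited table holds whole-number counts per Ensembl gene and FPKM values per library, per the file headers. It also holds the authors' mean FPKM, their log2 fold change and their p-values, whose test is not named, and none of these 3 is used here. The submitters' processing notes name GRCm38 and mm10; the sources used here do not give the aligner, counter or strand setting. Dividing counts by FPKM gives each gene's length in each library. Of 3673 genes above 1000 counts in all libraries, 1772 had lengths that differed by more than 1% (SD over mean), so the counts may be rounded estimates. Coordinates came from GENCODE M21 (22267 of 22322 IDs matched), and promoters from RefSeq on GRCm38.p6 for the 5 members it holds. 

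Counts were filtered with filterByExpr (13337 genes kept), scaled with TMM factors (0.992 to 1.01) and compared by edgeR 4.0.16 (R 4.3.3), using its two-sided quasi-likelihood test. P-values were adjusted over all tested genes by the Benjamini-Hochberg method, with a threshold of 0.05. "Rose" and "fell" mean past that threshold. A standard error is the fitted log2 difference, without its sign, divided by the square root of F; 95% intervals use 25.2 degrees of freedom. CPM are relative to TMM-scaled totals, and ± beside a CPM or FPKM is an SD over 4 libraries. Replicate pairs of a group differed by 1.81 to 3.26 times sampling noise (chi-square per degree of freedom). Copies were sought with blastn 2.17.0.

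The members and the 15 gene lists were chosen with earlier results of these data known. The naming rule takes the members and Suv39h1, from each list the 4 tested genes of highest CPM and the called gene of smallest p in each direction, the 5 genes nearest to Spink12, and called genes of at least 5 CPM among the 5 on each side of each member. Not all genes it takes are described, and some are not reported here. Pdgfra, Lum, Papln, Kat8, Scnn1a, Scnn1b, Scnn1g, Grhl1, Grhl2, Grhl3, Klk1b5, Spink5, Spink6, Gm37797, Slc22a6, Slc22a8 and Aqp2 fall outside it and were picked with their values in view. In data simulated for Ad-Cre against Ad-GFP over 13246 genes, 66 were changed 1.25-fold, 69 changed 1.5-fold and 65 changed 2-fold. The fit recovered 66.7%, 87.0% and 95.4% of these, in that order, and 7.26% of calls were unchanged genes. In the real data 40.3% of genes were called, a far larger share, so these rates need not hold there. Alternatives were other scalings and filters, DESeq2 1.42.0, limma-voom (limma 3.58.1), limma on log2 FPKM, thinning to 15879244 counts, the replicate number as a block and leaving out each library.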

Additional observations from a re-analysis of the deposited data

Results flagged for a closer look

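Of the 172 sets of 4 libraries examined (86 genes in each group), 4 held a library far from the other 3 by Dixon's test, where chance gives about 1 in 20. Epcam was at 286.0 CPM in Ad-GFP replicate 2, above the other Ad-GFP libraries. Pdgfc was at 65.0 CPM in Ad-GFP replicate 4, below the others. The distal nephron factor gene Tfap2b was at 31.1 CPM in Ad-GFP replicate 4, above the others. Cyp4b1, named above for its small distance to Spink12 in pattern, was at 6.43 CPM in Ad-Cre replicate 2, below the other Ad-Cre libraries. No member of the protease and inhibitor set held such a library.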

How the results depend on the processing

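The same 5 members rose and Spint2 was not called under all 19 alternative fits. Prss8 had the highest adjusted p of the 5 (0.0314, without Ad-GFP replicate 1). Its log2 fold change ran from 0.137 to 0.196, that of Spint1 from 0.093 to 0.124, St14 from 0.247 to 0.279, Tmprss2 from 0.318 to 0.374 and Hpn from 0.195 to 0.246. Over all genes the count of calls, 5370, became 3530 with limma on log2(FPKM + 1) and 3520 on log2(FPKM + 0.1), fits that differ in unit, test and filter; the cause was not tested. Leaving out a library gave 4816 to 5084 calls. Of the 5 genes nearest to Spink12, 3 stayed so on log2(FPKM + 1); the cause was not tested. Replicate numbers share only a number: same-numbered libraries deviated with correlations of -0.0115 to 0.104, not every library correlated best with its own number, and the fit with the replicate block called 5390 genes and the same 5 members. Among 85 named genes followed, 7 lost their call and 3 gained one in at least 1 of the 19 fits, and no called gene changed direction in them. Klk1 and most Kazal and kallikrein genes had too few counts to test at this depth. Whether their transcripts were absent or only below detection was not determined. With every tested gene counted in the lists, 3 anchored and secreted proteases rose and 2 fell (median log2 fold change 0.02), and the kallikrein and kinin median was -0.66.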

Other observations

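Markers of other cell types gave the following counts in the same libraries, each read against 19.8% of all genes called higher and 20.5% lower. Counts again leave out tested genes below the filter's cutoff of 0.557 CPM in any library. Of 12 proximal tubule markers 5 were tested, 4 rose and 0 fell: Aqp1 was at 22.4 ± 3.0 CPM in Ad-Cre and 4.52 ± 0.86 CPM in Ad-GFP, Ggt1 at 63.3 ± 1.1 CPM in Ad-Cre and 42.2 ± 2.0 CPM in Ad-GFP, and the injury marker Havcr1 at 46.9 ± 5.5 CPM in Ad-Cre and 30.4 ± 3.8 CPM in Ad-GFP. Slc22a6 and Slc22a8, transporters that define the mature proximal tubule, were at 0. Of 14 distal nephron and collecting duct markers 6 were counted, 3 rose and 1 fell. The thiazide-sensitive cotransporter gene Slc12a3 rose to 152.6% and Tfap2b to 133.4% of Ad-GFP, and the collecting duct water channel gene Aqp2 was at 0. Calb1 passed the filter through Ad-GFP alone, at 0.423 ± 0.19 CPM in Ad-Cre and 1.44 ± 0.24 CPM in Ad-GFP. Of 8 podocyte and parietal markers 6 were counted, 1 rose (Synpo, 152.0%) and 2 fell, Podxl to 82.9%.

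Of 10 fibroblast markers 9 were tested, 0 rose and 6 fell, with Acta2 at 53.0% of Ad-GFP. All 11 tested endothelial markers fell (median log2 fold change -1.01), and Cdh5 was at 19.0 ± 1.6 CPM in Ad-Cre and 39.4 ± 1.5 CPM in Ad-GFP. Among the 12 markers of macrophages and leukocytes, 0 rose and 9 fell, with C1qa at 62.8% and Lyz2 at 89.5%. Summed, the endothelial markers were at 77.2 to 88.0 CPM in Ad-Cre and 155.9 to 162.8 CPM in Ad-GFP.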
